A study of Arabidopsis thaliana with 12 samples.

Results

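The Aux/IAA genes and the auxin-conjugating GH3 genes of Arabidopsis were examined as the auxin response genes of a leaf RNA-seq series. The members are 35 genes listed by gene identifier. Of these, 34 had a row among the 36061 named genes of the count table, 28 in the Aux/IAA family and 6 in the GH3 family, and 1 of the 35 was not analysed here. All plants were Arabidopsis thaliana Columbia-0, and every library came from rosette leaf. WT-control was watered wild type, WT-drought was wild type without watering, PHD6-control was watered MtPHD6 transgenic plants, and PHD6-drought was MtPHD6 transgenic plants without watering, with 3 libraries in each group. The transgene is the coding sequence of MtPHD6, a plant homeodomain finger protein of Medicago truncatula, in homozygous plants of the third generation. The promoter that drives it and the transgenic line behind each library are not given in the sources used here, and the level of MtPHD6 was not analysed here. Water was withheld from seedlings 12 days old for 7 d in the study's methods, whereas the sample records give 10 days. The series was made to find which genes the MtPHD6 transgene and drought affect, and the comparisons below ask this of the auxin response genes.

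Auxin acts by removing repressors. Aux/IAA proteins bind auxin response factors (ARFs) and keep their target genes silent. Auxin joins an Aux/IAA protein to the receptor TIR1 or one of its AFB relatives, and the repressor is then ubiquitinated and degraded. Most Aux/IAA genes are themselves ARF targets, so their transcripts are widely read as a sign of auxin response and close a negative feedback loop. GH3 enzymes act on the hormone itself, joining indole-3-acetic acid to amino acids for storage or breakdown. In leaves the pathway governs cell expansion and vein patterning. IAA5, IAA6 and IAA19 are also known as genes whose joint loss makes Arabidopsis more sensitive to water deficit.

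The part of an Aux/IAA protein that auxin and TIR1 grip is the degron, a core of glycine, tryptophan and a pair of prolines that is usually followed by valine. The codons of this core were looked for in the RefSeq coding sequences (build TAIR10.1) of the 28 Aux/IAA genes. The full core with valine was found in 17, the core followed by a residue other than valine in 5 (IAA8, IAA10, IAA11, IAA12 and IAA27), and no core in 6 (IAA20, IAA30, IAA31, IAA32, IAA33 and IAA34). All 12 Aux/IAA genes called in any test below have the core. Of the 6 genes without it, only IAA30 and IAA32 had enough counts to be tested, so the calls cannot be linked to the core. The stretch is shown for 6 of the 12 called genes, on the coding strand with the 5 core codons in capitals. It lies at chr1:1129007-1129139 on the minus strand in IAA3, where an intron splits it, at chr1:19673311-19673361 on the minus strand in IAA6, at chr1:5366263-5366313 on the minus strand in IAA5, at chr3:5264298-5264348 on the plus strand in IAA19, at chr4:15583933-15583983 on the plus strand in IAA29 and at chr2:9637619-9637766 on the plus strand in IAA8, where an intron splits it too.
IAA3: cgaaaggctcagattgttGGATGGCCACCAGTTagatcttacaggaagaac
IAA6: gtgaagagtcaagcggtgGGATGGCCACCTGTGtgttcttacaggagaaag
IAA5: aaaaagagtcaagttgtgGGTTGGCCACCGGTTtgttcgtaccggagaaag
IAA19: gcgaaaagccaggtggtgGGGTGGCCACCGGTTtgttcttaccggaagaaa
IAA29: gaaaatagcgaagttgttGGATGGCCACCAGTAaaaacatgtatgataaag
IAA8: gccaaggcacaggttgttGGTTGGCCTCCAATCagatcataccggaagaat
The codon after the core is tgt in IAA5, IAA6 and IAA19, aga in IAA3 and IAA8, and aaa in IAA29.

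ARFs bind the auxin response elements TGTCTC and TGTCGG, and G-box factors such as the PIFs bind CACGTG. Each word was searched on both strands in the 300 bases before the annotated gene start. TGTCTC was present in 14 of the 34 members (41.2%) and in 12.9% of 27048 promoters of the same length, TGTCGG in 5 (14.7%) against 4.91%, and CACGTG in 5 (14.7%) against 7.13%. At least 1 of the TGTCTC and TGTCGG words was found in 6 of the 12 members called in any test and in 10 of the other 22. IAA19 holds 3 copies of TGTCTC, 184, 145 and 128 bases before its start, and a G-box at 70. The longest word that the windows of any pair of members share, out of 561 pairs, is 23 bases long and links IAA6 with IAA19. The stretch around it is shown because both genes return in the comparisons below; 65 of its 83 aligned bases are equal (78.3%), and capitals mark TGTCTC. It is chr1:19673781-19673863 on the minus strand for IAA6 and chr3:5263785-5263867 on the plus strand for IAA19.
IAA6: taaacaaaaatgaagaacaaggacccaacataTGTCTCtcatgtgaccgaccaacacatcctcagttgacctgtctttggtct
IAA19: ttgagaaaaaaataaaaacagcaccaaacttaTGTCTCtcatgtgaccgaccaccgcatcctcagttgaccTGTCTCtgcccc
The windows of IAA5, at chr1:5366498-5366797 on the minus strand, and of IAA29, at chr4:15583032-15583331 on the plus strand, are shown because these genes had the lowest levels relative to control in WT-drought. IAA5 carries TGTCGG at 226 and 97 bases and TGTCTC at 67 bases before its start, in capitals (CCGACA is TGTCGG read on the other strand). None of the 3 words is in the IAA29 window.
IAA5: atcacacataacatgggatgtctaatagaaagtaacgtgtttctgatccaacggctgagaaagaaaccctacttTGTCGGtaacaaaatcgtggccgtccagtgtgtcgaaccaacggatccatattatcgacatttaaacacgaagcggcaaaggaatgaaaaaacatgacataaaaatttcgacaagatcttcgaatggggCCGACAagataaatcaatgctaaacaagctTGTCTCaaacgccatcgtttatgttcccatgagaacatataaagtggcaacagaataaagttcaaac
IAA29: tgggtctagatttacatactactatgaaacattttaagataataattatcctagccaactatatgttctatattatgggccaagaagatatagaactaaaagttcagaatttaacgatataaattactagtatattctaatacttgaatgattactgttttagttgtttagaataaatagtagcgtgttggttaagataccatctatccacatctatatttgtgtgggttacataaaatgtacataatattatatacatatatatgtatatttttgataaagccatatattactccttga

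The libraries held between 17839925 and 24717357 counts in named genes. The leaf markers RBCS1A, CAB1 and RCA summed to between 30293 and 49830 counts per 1000000 counts of the library (CPM) in every library. The leaf sum was lowest in PHD6-drought replicate 1 (30293 CPM) and WT-control replicate 2 (32983 CPM). Root markers summed to 0.0882 CPM at most. The flower markers AG, AP3, PI and SEP3 summed to between 2.49 and 15.8 CPM, highest in WT-control replicate 2. The part of tissue make-up in the levels below was not tested. PHD6-control replicate 3 correlated better with WT-drought replicate 1 (r = 0.987 across 19681 genes) than with the rest of its own group (r = 0.984), and WT-control replicate 3 was closest to PHD6-control replicate 2 (r = 0.981). Results that change without either of these libraries are given with both values. In whole leaves, fewer cells of a type and less RNA per cell cannot be told apart.

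Per kilobase of exon, the highest levels belonged to IAA7 (128 CPM per kb), IAA9 (116), IAA8 (110) and IAA16 (73.6), as means of the 12 libraries, ahead of IAA4 (60.0) and IAA2 (59.7). IAA7, also called AXR2, and IAA16 belong with IAA14 and IAA17 to the branch best known from dominant auxin resistance. GH3.6, also called DFL1, was the highest GH3 member at 27.4 CPM per kb, and the other GH3 members stood at 6.69 or lower. At the low end, IAA15, IAA20, IAA31, IAA33, IAA34 and GH3.1 gave between 11 and 56 counts each over all 12 libraries together. These 6 did not pass the filter on low counts, so 28 members were tested, 23 in the Aux/IAA family and 5 in the GH3 family.

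Drought in wild type was read from WT-drought against WT-control. Here and below a gene was called at an adjusted p under 0.05 in edgeR's quasi-likelihood test, with Benjamini-Hochberg adjustment over 19681 genes, and log2 fold changes carry a standard error (SE). Of the 28 members, 1 was called higher (IAA18) and 5 lower (IAA29, IAA5, IAA1, IAA14 and IAA8), which is 21.4% where 19.4% of all genes tested were called. Among all genes tested, 12.2% were called higher and 7.18% lower (2406 and 1413 genes), and under upper-quartile scaling the split was 2023 higher and 2292 lower. The groups did not overlap for 9 members, against 37.4% of all genes. The median log2 fold change was -0.14 over the 28 members and -0.01 over all genes. The calls were all in the Aux/IAA family.

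IAA29 (AT4G32280), a gene known from shade and warmth responses as a PIF target, stood at 34.7, 25.5 and 18.7 CPM in WT-control and at 2.30, 3.12 and 4.29 CPM in WT-drought. Every drought library lay far below every control library. IAA29 fell by 3.03 on the log2 scale (SE 0.27, adjusted p = 0.000169, edgeR). IAA5 (AT1G15580) stood at 3.23, 2.43 and 2.57 CPM in WT-control and at 0.538, 0.716 and 0.477 CPM in WT-drought. Its groups were likewise apart, and IAA5 fell by 2.23 (SE 0.28, adjusted p = 0.000894, edgeR). AT1G15570, on the opposite strand and overlapping IAA5 by 48 bases, had a log2 fold change of -0.11 (SE 0.16). IAA1 (AT4G14560), known as AXR5 from an auxin-resistant mutant, stood at 19.7, 13.7 and 13.1 CPM in WT-control and at 7.58, 5.89 and 7.84 CPM in WT-drought, with no overlap. It fell by 1.13 (SE 0.18, adjusted p = 0.00318, edgeR).

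The remaining calls in wild type were small. IAA14 (AT4G14550), the SLR repressor of lateral root initiation, stood at 20.4, 17.6 and 18.0 CPM in WT-control and at 15.8, 12.4 and 12.5 CPM in WT-drought, and IAA14 fell by 0.47 (SE 0.12, adjusted p = 0.0245). IAA8 (AT2G22670), among the most abundant members, stood at 266, 257 and 252 CPM in WT-control and at 209, 203 and 200.5 CPM in WT-drought, and IAA8 fell by 0.35 (SE 0.07, adjusted p = 0.0122). For both genes all drought libraries lay below all control libraries. IAA18 (AT1G51950), known as CRANE from mutants with altered embryos and lateral roots, was the member that moved up, from 37.4, 36.1 and 37.5 CPM in WT-control to 48.5, 48.9 and 44.4 CPM in WT-drought, without overlap. IAA18 rose by 0.35 (SE 0.07, adjusted p = 0.00761). IAA17 (AT1G04250), known as AXR3, stood at 19.1, 17.4 and 16.3 CPM in WT-control and at 13.4, 13.6 and 15.3 CPM in WT-drought. It had a log2 fold change of -0.33 (SE 0.10) with an adjusted p that rounds to 0.05 and was not called. Under other scalings edgeR did call IAA17 lower, with DESeq2 size factors (adjusted p = 0.0451) and with upper-quartile scaling (-0.39, adjusted p = 0.0205). Leaving out a library ended the call of IAA14 (WT-control replicate 1 or 3, WT-drought replicate 2 or 3) at adjusted p between 0.0581 and 0.108, and that of IAA8 (any WT-drought replicate) between 0.0519 and 0.0693. With the replicate number as a block, which pairs these 6 libraries, IAA6 was called as well (log2 fold change -0.86, adjusted p = 0.00715; without the block -0.84 and 0.144). IAA6 was also called without WT-drought replicate 1 (-1.30, adjusted p = 0.0402). IAA4 stood at 83.4, 85.9 and 84.3 CPM in WT-control and at 75.0, 73.1 and 78.7 CPM in WT-drought, apart but not called. With upper-quartile scaling edgeR called IAA4 lower (adjusted p = 0.0392). In WT-drought IAA2 stood at 70.5, 61.8 and 72.9 CPM and IAA19 at 14.7, 13.2 and 15.6 CPM, and both overlapped WT-control.

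**Figure D1:**
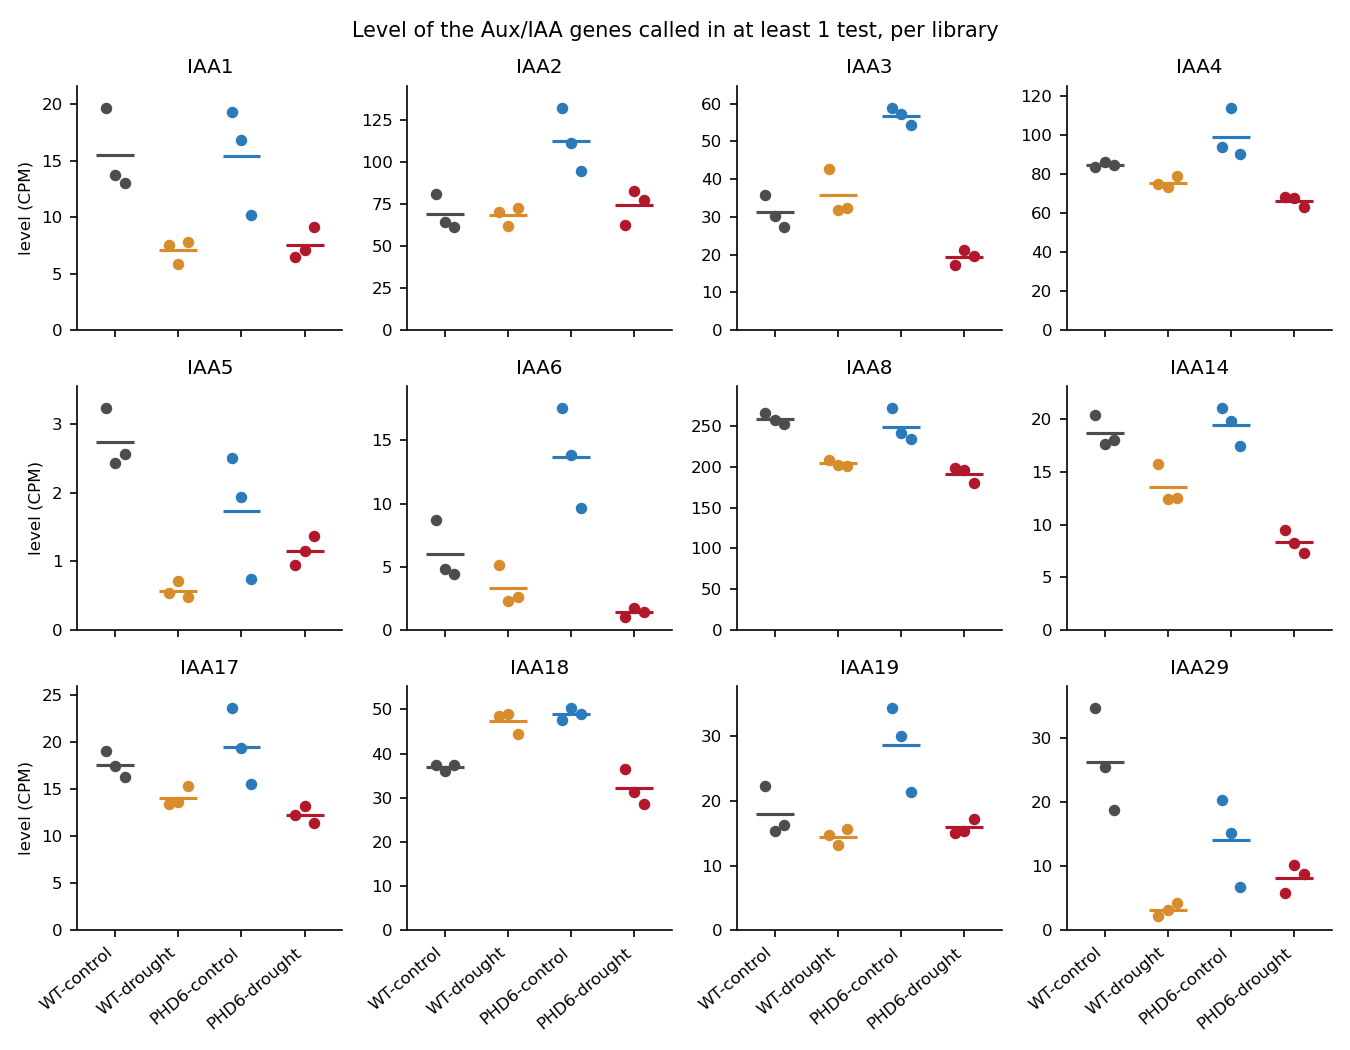
Level in CPM (vertical axes, starting at 0) of the 12 Aux/IAA genes called in at least 1 test, in the 4 groups; points are libraries and lines are means of 3. In IAA29 and IAA5 the WT-drought points lie lowest, whereas in IAA3, IAA6 and IAA14 the PHD6-drought points do.

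Drought in MtPHD6 plants was read from PHD6-drought against PHD6-control, 6 libraries that the wild-type comparison did not use. Of the 28 members, 10 were called lower (35.7%), where 22.2% of all genes tested were called (9.49% higher and 12.7% lower). The groups did not overlap for 13 members, against 41.3% of all genes. The median log2 fold change was -0.22 over the 28 members and 0.02 over all genes. The 10 were IAA1, IAA2, IAA3, IAA4, IAA6, IAA8, IAA14, IAA17, IAA18 and IAA19. None was called higher by edgeR (1 at an unadjusted p under 0.05, 0 by DESeq2), and without PHD6-drought replicate 3 IAA26 was (0.57, adjusted p = 0.031).

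IAA6 (AT1G52830), known as SHY1 from a suppressor of a long-hypocotyl mutant, stood at 17.5, 13.8 and 9.66 CPM in PHD6-control and at 1.07, 1.76 and 1.43 CPM in PHD6-drought. Its groups did not overlap, and IAA6 fell by 3.26 on the log2 scale (SE 0.27, adjusted p = 0.000317, edgeR). IAA3 (AT1G04240), known as SHY2 and as the switch between auxin and cytokinin in the root meristem, stood at 58.8, 57.4 and 54.3 CPM in PHD6-control and at 17.4, 21.1 and 19.7 CPM in PHD6-drought. The 3 libraries of each group were tight and far from those of the other, and IAA3 fell by 1.55 (SE 0.09, adjusted p = 5.77e-05, edgeR). AT1G04230 overlaps IAA3 by 640 bases on the opposite strand, and it is not stated whether strand was used in counting. Its level lay between 11.4 and 15.7 CPM in the 12 libraries, with a log2 fold change of 0.13 (SE 0.12) in this comparison.

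IAA14 stood at 21.0, 19.9 and 17.5 CPM in PHD6-control and at 9.46, 8.25 and 7.35 CPM in PHD6-drought, and IAA14 fell by 1.22 (SE 0.12, adjusted p = 0.000762). IAA1 stood at 19.3, 16.8 and 10.2 CPM in PHD6-control and at 6.47, 7.06 and 9.10 CPM in PHD6-drought, and IAA1 fell by 1.04 (SE 0.24, adjusted p = 0.0168). IAA14 and IAA1 are neighbours on chromosome 4, facing away from each other with 10732 bases between them. Neither gene's groups overlapped, although PHD6-control replicate 3 came close to the drought libraries for IAA1. IAA19 (AT3G15540), known as MSG2 from plants whose hypocotyls fail to bend, stood at 34.3, 30.1 and 21.4 CPM in PHD6-control and at 15.1, 15.4 and 17.3 CPM in PHD6-drought. IAA19 fell by 0.85 (SE 0.16, adjusted p = 0.00947).

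IAA18, which had risen in wild type, stood at 47.6, 50.2 and 48.8 CPM in PHD6-control and at 36.5, 31.4 and 28.5 CPM in PHD6-drought, and here IAA18 fell by 0.60 (SE 0.10, adjusted p = 0.00472). IAA17 stood at 23.6, 19.4 and 15.6 CPM in PHD6-control and at 12.2, 13.2 and 11.4 CPM in PHD6-drought, and IAA17 fell by 0.67 (SE 0.15, adjusted p = 0.0169). No drought library of these genes reached the control range. IAA2 (AT3G23030) stood at 132, 112 and 94.4 CPM in PHD6-control and at 62.4, 83.0 and 77.3 CPM in PHD6-drought, and IAA2 fell by 0.60 (SE 0.14, adjusted p = 0.0193). IAA4 (AT5G43700) stood at 93.7, 114 and 90.1 CPM in PHD6-control and at 68.0, 67.6 and 63.1 CPM in PHD6-drought, and IAA4 fell by 0.58 (SE 0.10, adjusted p = 0.00581). IAA1, IAA2, IAA3 and IAA4 are close relatives and early auxin-induced genes, and all of them fell in this comparison. IAA8 stood at 272, 241 and 234 CPM in PHD6-control and at 199, 195 and 180 CPM in PHD6-drought, and IAA8 fell by 0.38 (SE 0.08, adjusted p = 0.0149). Without PHD6-control replicate 1 or without PHD6-control replicate 2 the members called lower numbered 6 (IAA3, IAA4, IAA6, IAA14, IAA18 and IAA19), with IAA1, IAA2, IAA8 and IAA17 at adjusted p between 0.0505 and 0.0706. The other libraries that ended a call were PHD6-drought replicate 2 for IAA1 (adjusted p = 0.0622) and PHD6-drought replicate 3 for IAA17 (0.0575) and IAA8 (0.0539).

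IAA29 and IAA5, which fell furthest in wild type, were not called in MtPHD6 plants. IAA29 stood at 20.4, 15.1 and 6.80 CPM in PHD6-control and at 5.82, 10.1 and 8.72 CPM in PHD6-drought, and IAA5 at 2.51, 1.94 and 0.746 CPM in PHD6-control and at 0.942, 1.15 and 1.37 CPM in PHD6-drought. The groups of both genes overlapped, and the overlap came from PHD6-control replicate 3. The log2 fold change of IAA29 was -0.77 (SE 0.36, adjusted p = 0.164), and without PHD6-control replicate 3 it was -1.11, which was called (adjusted p = 0.0101). That of IAA5 was -0.58 (SE 0.43, adjusted p = 0.366).

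**Figure D2:**
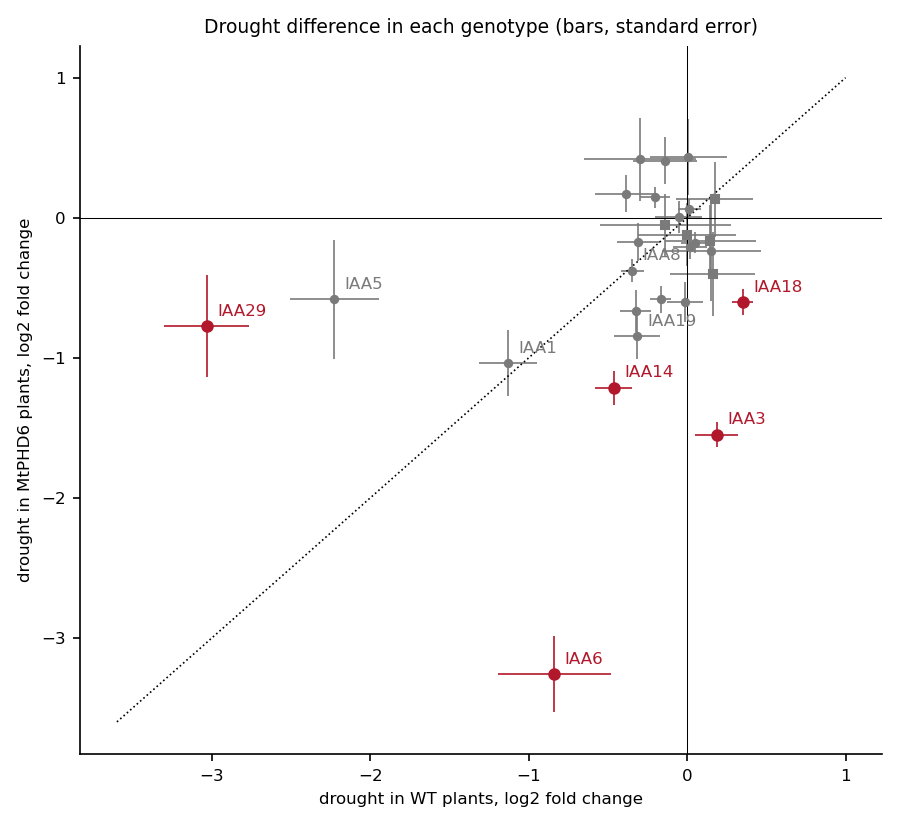
Log2 fold change under drought in WT plants (horizontal) and in MtPHD6 plants (vertical) for the 28 tested members, with standard errors; circles are Aux/IAA genes, squares GH3 genes, red marks the 5 members whose drought difference itself differed between genotypes, and the dotted line marks equal values. IAA29 and IAA5 lie above the line and IAA3, IAA6, IAA14 and IAA18 below it, while IAA1 and IAA8 lie close to it.

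Whether drought moved a member differently in the 2 genotypes was tested by the interaction over all 12 libraries. It was past the threshold for 5 of the 28 members (17.9%), 1 higher and 4 lower, where 6.98% of all genes tested were (1.38% higher and 5.60% lower, or 271 and 1102 genes, and 491 and 1006 genes under upper-quartile scaling). For IAA3 the drought difference was lower in MtPHD6 than in WT plants by 1.74 on the log2 scale (value -1.74, SE 0.18, adjusted p = 6.43e-05). The level in WT plants was 35.9, 30.3 and 27.5 CPM watered and 42.7, 31.9 and 32.5 CPM in drought, with a log2 fold change of 0.19 (SE 0.14), so that IAA3 fell only in MtPHD6 plants and the test of the difference was passed. For IAA18 the value was -0.95 (SE 0.12, adjusted p = 0.000221), with a call upward in wild type and a call downward in MtPHD6 plants. For IAA6 it was -2.42 (SE 0.50, adjusted p = 0.00964). IAA6 stood at 8.67, 4.87 and 4.45 CPM in WT-control and at 5.18, 2.32 and 2.60 CPM in WT-drought, ranges that overlapped. For IAA14, called lower in both genotypes, the value was -0.75 (SE 0.17, adjusted p = 0.0183), and without WT-drought replicate 1 it was -0.63 with adjusted p = 0.0503.

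IAA29 was the member whose drought difference was smaller in MtPHD6 plants, with a value of 2.26 (SE 0.53, adjusted p = 0.0186, edgeR). This call was lost without WT-drought replicate 1 (adjusted p = 0.0606), without WT-drought replicate 2 (0.0509) or without PHD6-drought replicate 2 (0.0551). IAA5 had a value of 1.65 (SE 0.54, adjusted p = 0.102) and was not called, but was without PHD6-control replicate 1 (2.01, adjusted p = 0.0437). Leaving out 1 library also added IAA2 (WT-control replicate 1, -0.72, adjusted p = 0.0474), IAA4 (PHD6-control replicate 3, -0.48, adjusted p = 0.0289) and IAA12 (WT-drought replicate 2, 0.43, adjusted p = 0.039). IAA1 and IAA8, which fell in both genotypes, had values of 0.09 (SE 0.33) and -0.03 (SE 0.10).

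The transgene in watered plants was read from PHD6-control against WT-control. Of the 28 members 3 were called higher (IAA3, IAA2 and IAA18) and none lower by edgeR (1 at an unadjusted p under 0.05, 0 by DESeq2), 10.7% where 4.98% of all genes tested were called (4.26% higher and 0.722% lower). The groups did not overlap for 8 members, against 24.2% of all genes, and the median log2 fold change was 0.14 over the members and -0.02 over all genes. IAA3 rose by 0.86 on the log2 scale (SE 0.10, adjusted p = 0.00249), from a mean of 31.2 ± 4.31 to 56.8 ± 2.30 CPM (SD, n = 3 libraries; model fitted across all genes). IAA2 stood at 80.7, 64.4 and 61.2 CPM in WT-control, all below the PHD6-control values given above, and IAA2 rose by 0.70 (SE 0.14, adjusted p = 0.0272). IAA18 rose by 0.39 (SE 0.07, adjusted p = 0.0119), and its watered groups did not overlap.

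IAA6 and IAA19, the pair with the shared promoter stretch, had log2 fold changes of 1.18 (SE 0.29, adjusted p = 0.0593) and 0.66 (SE 0.19, adjusted p = 0.107) and were not called. DESeq2 called both higher, at adjusted p = 0.00105 for IAA6 and 0.0191 for IAA19. Of 13 alternatives, 7 called IAA6 and 4 called IAA19. IAA19 stood at 22.3, 15.4 and 16.3 CPM in WT-control, and its range met that of PHD6-control through PHD6-control replicate 3, whereas all PHD6-control libraries of IAA6 lay above all WT-control libraries. Without PHD6-control replicate 3 the members called higher numbered 5, and IAA6 (1.38, adjusted p = 0.0397) and IAA19 (0.83, adjusted p = 0.0329) were among them. Without PHD6-control replicate 2 only IAA3 was called, with IAA2 at adjusted p = 0.0702 and IAA18 at 0.0509. IAA2 also lost its call without WT-control replicate 2 (adjusted p = 0.0752), WT-control replicate 3 (0.121) or PHD6-control replicate 1 (0.0892), and IAA6 was called without WT-control replicate 1 (1.53, adjusted p = 0.0188).

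The transgene under drought was read from PHD6-drought against WT-drought, the drought groups of the comparisons above. IAA29 was called higher and IAA3, IAA14 and IAA18 lower, 14.3% of the 28 where 6.53% of all genes tested were called (2.65% higher and 3.89% lower). The groups did not overlap for 11 members, against 28.5% of all genes, and the median log2 fold change was 0.05 over the members and 0.01 over all genes. IAA29 rose by 1.36 (SE 0.26, adjusted p = 0.0209), its 3 PHD6-drought libraries all lying above its WT-drought libraries. IAA3 fell by 0.87 (SE 0.13, adjusted p = 0.0096), from a mean of 35.7 ± 6.10 to 19.4 ± 1.89 CPM (SD, n = 3 libraries; edgeR across all genes). IAA14 fell by 0.69 (SE 0.14, adjusted p = 0.0242) and IAA18 by 0.55 (SE 0.10, adjusted p = 0.016). IAA6 was at -1.23 (SE 0.35, adjusted p = 0.0699), without overlap and without a call. DESeq2 did call IAA6 lower (adjusted p = 0.0155), and so did edgeR with no filter on low counts (adjusted p = 0.0351).

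In this comparison IAA3 alone kept its call whichever library was left out. Without WT-drought replicate 1, without WT-drought replicate 2 or without PHD6-drought replicate 2, adjusted p lay between 0.0726 and 0.0831 for IAA29, between 0.059 and 0.111 for IAA14 and between 0.0609 and 0.0783 for IAA18, so that none was called. IAA14 was not called without WT-drought replicate 3 (adjusted p = 0.0606) or PHD6-drought replicate 3 (0.0623) either. Without PHD6-drought replicate 1 the members called higher were 2, IAA29 and IAA9 (0.22, adjusted p = 0.0464).

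**Figure D3:**
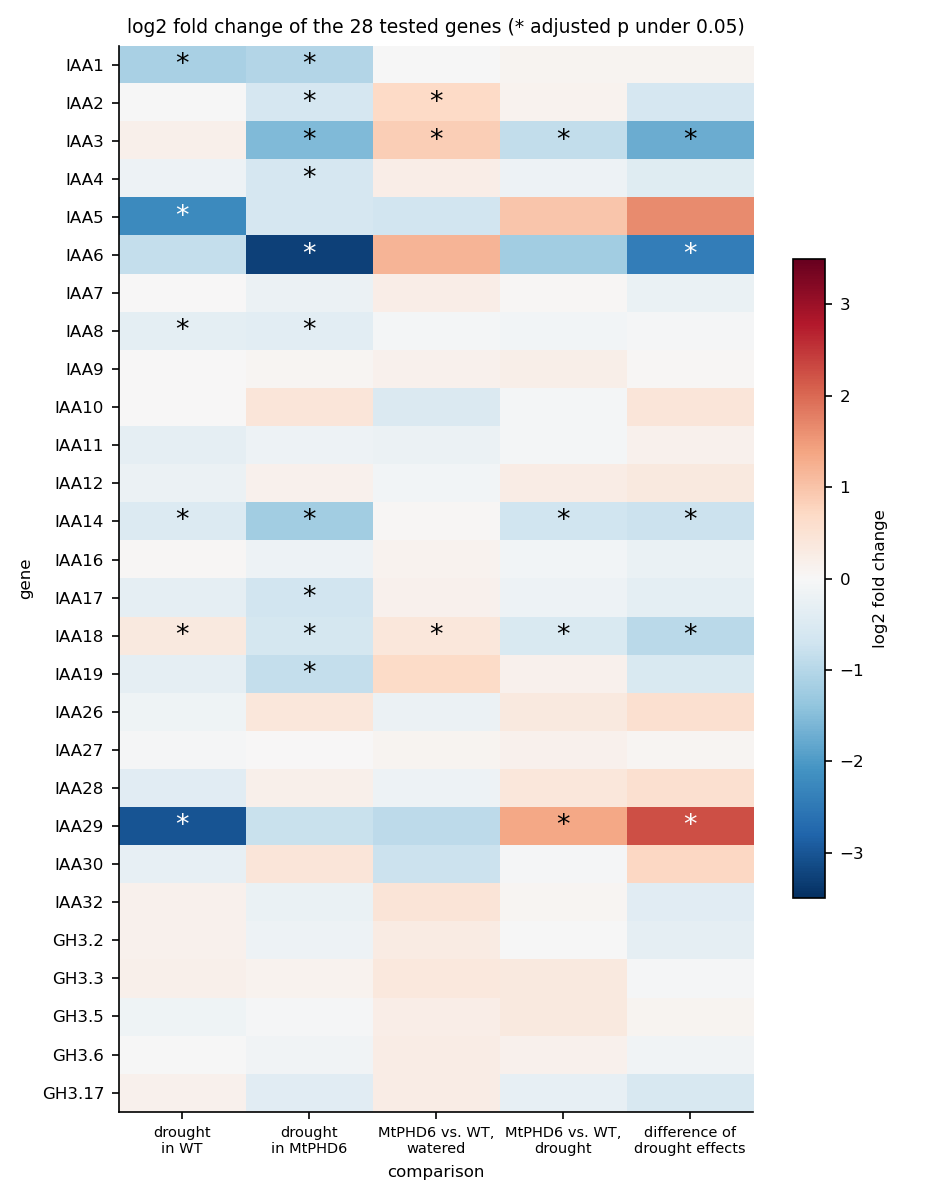
Log2 fold change (colour, red higher and blue lower) of the 28 tested members, one per line of the map, in the 4 comparisons and in the difference of drought effects between genotypes; an asterisk marks adjusted p under 0.05 in edgeR. Calls are confined to 12 Aux/IAA genes. IAA3 and IAA18 have opposite colours, each with an asterisk, in the watered and drought comparisons of the genotypes. Other genes, among them IAA5, IAA6 and IAA29, also have opposite colours there, but without an asterisk in both.

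By aligned coding sequence the nearest relative of IAA3 is IAA4 (81.1% identity over the shorter sequence), that of IAA1 is IAA2 (82.6%), that of IAA14 is IAA7 (80.1%), that of IAA18 is IAA26 (78.1%) and that of IAA6 is IAA19 (73.9%). IAA26, which can bind a viral replication protein, stood between 23.0 and 46.3 CPM in the 12 libraries and had log2 fold changes between -0.21 and 0.41 in the 4 comparisons and no call, beside 4 calls for IAA18. IAA7 stood between 207 and 286 CPM and had log2 fold changes between -0.21 and 0.24 and no call, beside 3 for IAA14. IAA3 and IAA17 are also neighbours, facing away from each other on chromosome 1 with 6388 bases between them, and so are IAA2 and IAA7 on chromosome 3 with 12510. Only IAA3 of the first pair and only IAA2 of the second were called for the transgene in watered plants, and the differences between neighbours were not tested.

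The other tested Aux/IAA genes gave no call in any test. IAA9, known for its part in leaf shape in tomato, stood between 223 and 281 CPM in the 12 libraries, and IAA16 between 133 and 166 CPM. IAA12, known as BDL from the rootless embryos of its dominant mutant, stood between 18.0 and 23.9 CPM. The log2 fold changes of IAA9, IAA12 and IAA16 in the 4 comparisons stayed between -0.20 and 0.27. IAA11, IAA27 and IAA28 stood between 7.15 and 11.5, between 19.4 and 29.7 and between 7.19 and 14.3 CPM, with log2 fold changes between -0.39 and 0.38. IAA10, IAA30 and IAA32, with 269 to 615 counts each over the 12 libraries, had log2 fold changes between -0.76 and 0.45 with standard errors from 0.24 to 0.36.

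The GH3 members gave no call in any of the 5 tests by edgeR, and 0 of them were past an unadjusted p under 0.05 or called by DESeq2. GH3.6 (AT5G54510) stood at 36.7, 90.7 and 48.9 CPM in WT-control, at 43.4, 63.1 and 71.0 CPM in WT-drought, at 74.6, 71.4 and 67.7 CPM in PHD6-control and at 90.9, 62.0 and 43.0 CPM in PHD6-drought. The spread inside WT-control was nearly as wide as the whole range of the gene, whereas the PHD6-control libraries lay close together. GH3.5 (AT4G27260), which can also conjugate salicylic acid, stood at 9.53, 24.5 and 10.3 CPM in WT-control, at 7.48, 14.0 and 19.4 CPM in WT-drought, at 19.3, 18.2 and 15.6 CPM in PHD6-control and at 22.4, 17.6 and 11.0 CPM in PHD6-drought. WT-control replicate 2 and PHD6-drought replicate 1 were the highest libraries for both genes. The same libraries were highest in the sum of the 4 shoot meristem markers STM, KNAT1, CLV3 and WUS. That sum was 35.5 and 37.9 CPM, against 11.3 to 26.3 CPM in the other libraries. It came almost wholly from STM and KNAT1. CLV3 reached 0.285 CPM at most and WUS 0.166 CPM, neither passed the filter on low counts, and neither was highest in these libraries. The sum of the 5 markers of dividing cells was highest there too, at 100.2 and 87.4 CPM. The part of meristem or dividing tissue in the GH3 levels was not tested. GH3.3, GH3.17 and GH3.2 stood between 4.97 and 15.8, between 3.67 and 9.83 and between 2.28 and 4.59 CPM, and the groups of all 5 tested GH3 genes overlapped in each of the 4 comparisons. Their log2 fold changes lay between -0.40 and 0.38, with standard errors from 0.22 to 0.41.

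**Figure D4:**
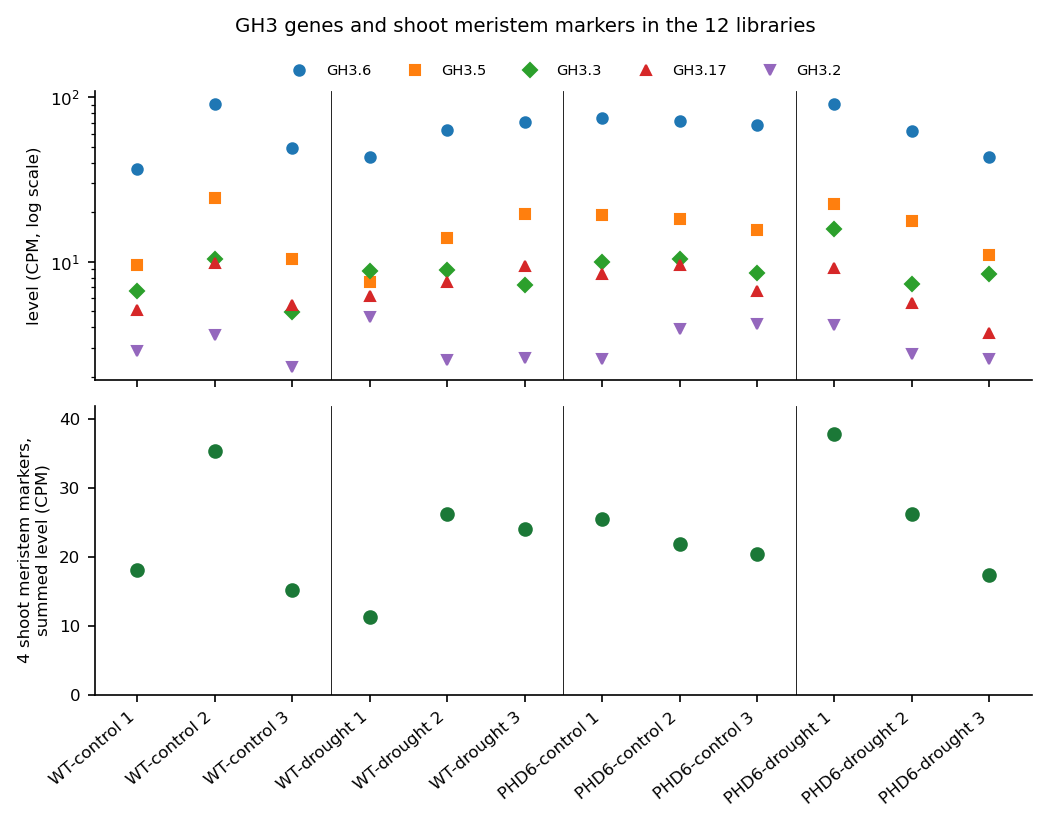
Level of the 5 tested GH3 members (upper panel, CPM on a log axis) and summed level of 4 shoot meristem markers (lower panel) in each of the 12 libraries. WT-control 2 and PHD6-drought 1 are highest for GH3.6, GH3.5 and the marker sum, which is almost wholly STM and KNAT1, and no group stands apart.

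Of 4 tested GH3 relatives outside the listed 6, DFL2 and PBS3 were called in at least 1 test by edgeR. The calls were 1 of 4 genes for drought in wild type, drought in MtPHD6 plants, the transgene in watered plants and the interaction. Of all genes tested, 19.4%, 22.2%, 4.98% and 6.98% were called in these tests. The difference from the listed genes was not tested. DFL2, known from hypocotyl growth in light, stood at 71.1, 70.5 and 82.6 CPM in PHD6-control and at 29.5, 31.3 and 29.9 CPM in PHD6-drought. The groups were far apart, and DFL2 fell by 1.31 on the log2 scale (SE 0.08, adjusted p = 9.59e-05). DFL2 rose by 0.52 in PHD6-control against WT-control (SE 0.10, adjusted p = 0.0252), and its interaction value was -1.13 (SE 0.23, adjusted p = 0.0091). PBS3, which acts in salicylic acid synthesis, rose by 1.75 under drought in wild type (SE 0.20, adjusted p = 0.000565).

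Upstream of the repressors stands auxin synthesis. Of 8 tested synthesis genes 4 fell under drought in wild type, where 7.18% of all genes tested were called lower, among them YUC8 by 1.66 (SE 0.30, adjusted p = 0.00553), YUC9 by 3.58 (SE 0.71, adjusted p = 0.00819) and YUC2 by 1.18 (SE 0.25, adjusted p = 0.0117). YUC enzymes carry out the last step of the main route to indole-3-acetic acid. YUC9 is barely expressed here, at 1.67, 0.676 and 1.31 CPM in WT-control and at 0, 0.0842 and 0.212 CPM in WT-drought. In MtPHD6 plants under drought, 12.7% of all genes tested were called lower. Only YUC5 of the 8 was called there, lower by 2.19 (value -2.19, SE 0.46, adjusted p = 0.0128). YUC5 had risen by 1.96 with the transgene in watered plants (SE 0.40, adjusted p = 0.0303). Its interaction value was -2.88 (SE 0.61, adjusted p = 0.0112). YUC5 lay between 0.128 and 1.47 CPM in the 12 libraries.

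Among 13 tested transport genes, 3 fell under drought in wild type and 5 in MtPHD6 plants, and none rose in either by edgeR (0 at an unadjusted p under 0.05, 0 by DESeq2). The shares of all genes tested were 7.18% lower and 12.2% higher in wild type, and 12.7% lower and 9.49% higher in MtPHD6 plants. The efflux carrier PIN7 fell by 0.74 in wild type (SE 0.11, adjusted p = 0.0017) and by 0.59 in MtPHD6 plants (SE 0.09, adjusted p = 0.00431). PIN3, an efflux carrier of tropic growth, fell by 0.63 in MtPHD6 plants (SE 0.08, adjusted p = 0.00187). With the transgene in watered plants none was called by edgeR (1 at an unadjusted p under 0.05, 1 by DESeq2), and under drought the influx carrier LAX1 was lower by 0.35 (value -0.35, SE 0.08, adjusted p = 0.0285).

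The receptors sense auxin and the ARFs act on its target genes. Of 6 receptor genes, 0 were called under drought in wild type by edgeR (3 at an unadjusted p under 0.05, 0 by DESeq2), and AFB2 (0.24, SE 0.06, adjusted p = 0.0284) and TIR1 (0.27, SE 0.08, adjusted p = 0.0376) rose in MtPHD6 plants, where 9.49% of all genes tested rose. Of 15 ARF genes, 1 rose and 3 fell in wild type and 2 rose and 3 fell in MtPHD6 plants, where 19.4% and 22.2% of all genes tested were called. ARF11 fell in both, by 1.22 (SE 0.14, adjusted p = 0.000488) and by 1.14 (SE 0.14, adjusted p = 0.00169). The hydrolase gene ILL2, which frees auxin from conjugates, rose in both, by 0.44 (SE 0.09, adjusted p = 0.00914) and by 0.43 (SE 0.11, adjusted p = 0.0256), the only call by edgeR among 5 breakdown and hydrolysis genes (DESeq2 called 1 in wild type and 2 in MtPHD6 plants).

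The other classical auxin-induced genes were read from SAUR genes, small growth-promoting proteins, and from a short list. Of 57 tested SAUR genes 6 rose and 16 fell under drought in wild type, and 10 rose and 13 fell in MtPHD6 plants. Among all genes tested, 12.2% rose and 7.18% fell in wild type, and 9.49% rose and 12.7% fell in MtPHD6 plants. Of those that fell in wild type, SAUR20 fell by 1.41 (SE 0.18, adjusted p = 0.00101) and SAUR24 by 1.27 (SE 0.19, adjusted p = 0.0019), both from the cluster of cell expansion genes on chromosome 5. With the transgene 5 SAUR genes rose and 4 fell in watered plants and 2 rose and 1 fell under drought, and 8 were higher and 6 lower in the interaction. The shares of all genes tested were 4.26% higher and 0.722% lower in watered plants and 2.65% and 3.89% under drought. In the interaction they were 1.38% and 5.60%. Of 5 other auxin-induced genes, 3 fell in wild type and 1 in MtPHD6 plants under drought. PRE1, a growth-promoting helix-loop-helix factor, stood at 27.6, 13.8 and 17.5 CPM in WT-control and at 2.44, 4.34 and 5.19 CPM in WT-drought, and PRE1 fell by 2.30 (SE 0.31, adjusted p = 0.00124). ACS4, an enzyme of ethylene synthesis induced by auxin, fell by 2.74 in wild type (SE 0.38, adjusted p = 0.00141) and by 1.24 in MtPHD6 plants (SE 0.33, adjusted p = 0.0308). The interaction value of PRE1 was 2.62 (SE 0.61, adjusted p = 0.0189), in the direction of that of IAA29.

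Of 10 shade and PIF target genes, 3 rose under drought in wild type and 3 fell in MtPHD6 plants. Over all genes tested, 12.2% rose in wild type and 12.7% fell in MtPHD6 plants. PAR1, an inhibitor of shade growth, stood at 12.2, 11.4 and 14.8 CPM in WT-control, at 22.0, 21.3 and 16.7 CPM in WT-drought, at 25.9, 27.3 and 26.0 CPM in PHD6-control and at 15.0, 13.6 and 13.8 CPM in PHD6-drought. Every library of WT-drought and PHD6-control lay above every library of the other groups, as for IAA18. PAR1 rose by 0.64 in wild type (SE 0.14, adjusted p = 0.0122) and fell by 0.90 in MtPHD6 plants (SE 0.08, adjusted p = 0.000477), with an interaction value of -1.54 (SE 0.16, adjusted p = 8.28e-05). The clock gene LUX had an interaction value of -0.60 (SE 0.11, adjusted p = 0.00536), the 1 call by edgeR among 12 clock genes in the interaction (2 at an unadjusted p under 0.05, 1 by DESeq2). Across all genes tested, 6.98% were called in the interaction. The hour of harvest is not given in the sources used here, and its part in these levels was not tested.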

How the data were processed

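Leaf RNA-seq was made from 12 libraries in 4 groups of 3. Paired-end reads were aligned with HISAT2 2.0.5. FeatureCounts 1.5.0-p3 gave the raw, not normalized, read counts that the authors deposited; their DESeq2 1.16.1 results were not used. Whether strand was used, and any harvest batch, are not given in the sources used here. Of 38082 rows, 2021 without a gene name (0.387 to 0.463% of counts) were left out, leaving 36061. Depth was 17839925 to 24717357 counts per library. Gene positions equalled those of TAIR10.1 for 1016 of 1017 genes with positions in the study's supplement, so that annotation was used.

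The members and the other gene lists were chosen with earlier results of these data known. Levels are counts scaled to 1000000 per library (CPM) after TMM scaling, per kilobase of exon where genes are compared. Each pair of groups was fitted alone (6 libraries) with glmQLFit and glmQLFTest in edgeR 4.0.16 (R 4.3.3), and the interaction over all 12. Genes passed filterByExpr with a minimum count of 10 (19681 genes), p-values were adjusted by Benjamini-Hochberg over these, and the call was adjusted p under 0.05. The SE is the log2 fold change divided by the root of its F statistic. Groups do not overlap where the lowest library of one lies above the highest of the other. All members are accounted for, those called in any test with every library's value and the others by ranges; of other lists, at most 3 called genes per list and comparison with the smallest p are named. The replicates are stated to be biological. Each p-value sets a group difference against the spread between these libraries, in a model fitted across all genes.

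Replicate numbers were checked as a pairing by the correlation of deviations from group means. Same-numbered libraries of WT-control and WT-drought deviated together (r = 0.348, 0.148 and 0.142), so the blocked value is given where it changes a call there. For the other comparisons at least 1 number had r below 0.1.

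Alternatives were other scalings, DESeq2 1.42.0, other filters, a replicate block, a joint fit and leaving out each library. Sequences are RefSeq TAIR10.1, read with Biopython 1.88; the 34 genes all matched. Coding sequences are the longest of each gene, aligned globally with free end gaps. Among coding sequences of members, 50-base words were shared only by IAA20 with IAA30 (3 words) and by GH3.2 with GH3.3 (7 words). The study's reads were longer than these words, and any effect on the counts was not tested.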

Additional observations from a re-analysis of the deposited data

Results flagged for a closer look

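The drought difference itself, MtPHD6 minus WT plants on the log2 scale, was past the threshold for 5 members in the interaction test of edgeR over all genes. It was -1.74 for IAA3 (adjusted p = 6.43e-05), -0.95 for IAA18 (adjusted p = 0.000221), -2.42 for IAA6 (adjusted p = 0.00964), -0.75 for IAA14 (adjusted p = 0.0183) and 2.26 for IAA29 (adjusted p = 0.0186). IAA3, IAA18 and IAA6 stayed past the threshold in all 18 alternatives tried, IAA14 in 17 and IAA29 in 15.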

How the results depend on the processing

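No call of a member changed direction under any alternative run. DESeq2 and the joint fit of all 12 libraries each called 5 members higher with the transgene in watered plants (main value 3), IAA6 and IAA19 being the added calls. With the transgene under drought DESeq2 called 2 higher, IAA29 and IAA9, and the joint fit called 0 (main value 1). DESeq2 called 4 lower there (main value 3), IAA6 being the added call. The other scalings and filters left each count of members within 1.5 times. Leaving out 1 library gave 3 to 5 members lower for drought in wild type (main value 5), 0 to 1 higher and 6 to 11 lower for drought in MtPHD6 plants (0 and 10), 1 to 5 higher for the transgene in watered plants (3), 0 to 2 higher and 1 to 3 lower for the transgene under drought (1 and 3), and 0 to 2 higher and 3 to 5 lower in the interaction (1 and 4). Calls kept in each alternative that tested the gene (IAA5 was not tested under the filter of at least 1 CPM in all 12 libraries) were IAA1, IAA5, IAA18 and IAA29 for drought in wild type, IAA3, IAA4, IAA6, IAA14, IAA18 and IAA19 for drought in MtPHD6 plants, IAA3 in both transgene comparisons, and IAA3, IAA6 and IAA18 in the interaction. The cause of these changes was not tested.

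Over all genes, the transgene in watered plants gave 839 higher and 142 lower, against 734 and 220 under upper-quartile scaling, 1219 and 264 with DESeq2 and 1262 and 336 in the joint fit. Under upper-quartile scaling drought in wild type gave 2292 genes lower in place of 1413, and the interaction 491 higher in place of 271. The transgene under drought gave 521 and 765, against 832 and 1045 with DESeq2 and 300 and 639 in the joint fit. Leaving out 1 library gave, in the order higher and lower, 1595 to 2627 and 658 to 2361 for drought in wild type, 709 to 2313 and 1268 to 2565 for drought in the MtPHD6 genotype, 446 to 742 and 55 to 142 for the transgene in watered plants, 68 to 1557 and 181 to 1218 for the transgene under drought, and 142 to 324 and 846 to 1145 in the interaction.

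With the replicate number as a block, drought in wild type gave 1 member higher and 6 lower, IAA6 being the 1 call that changed. The sources used here state no pairing in any comparison. Outside drought in wild type, same-numbered libraries had correlations of -0.136, 0.164 and 0.281 between the watered and dry MtPHD6 libraries. The correlations were -0.004, -0.033 and -0.522 for the transgene in watered plants and -0.154, -0.025 and -0.16 for the transgene under drought. There the block gave 0 higher and 10 lower, 4 higher (IAA2, IAA3, IAA6 and IAA19, with IAA18 lost at adjusted p = 0.0522) and 1 lower (IAA29), and 1 higher and 3 lower, and the interaction gave 1 higher and 4 lower. Over all genes the block gave 622 higher and 96 lower for the transgene in watered plants and 434 and 458 under drought.

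The 6 members with 11 to 56 counts over the 12 libraries were too low to be tested.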

Other observations

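The 28 Aux/IAA genes with a row summed to 1173 to 1236 CPM in WT-drought and to 1173 to 1224 CPM in PHD6-drought, with 1213 to 1360 CPM in WT-control and 1355 to 1552 CPM in PHD6-control. IAA34, below the filter on low counts, stood at 0.853 and 0.496 CPM in PHD6-control replicates 1 and 2 and at 0.309 CPM or less in the other 10 libraries.

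Of the 28 tested members, 20 had their lowest PHD6-control level in PHD6-control replicate 3, and 17 had their lowest WT-control level in WT-control replicate 3. In the drought groups the library that was most often lowest was PHD6-drought replicate 3, for 15 members, and WT-drought replicate 1, for 13.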
